A study of Sus scrofa with 18 samples.

Results

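The T cell receptor signalling genes described here are CD3E, CD3D, CD3G, CD247, CD2, CD8A, CD4, LCK and ZAP70. They were chosen by name with earlier results of these data known, so counts set beside all genes only describe them. Of these 9 genes, 8 were placed among the 28210 RefSeq genes on the named chromosomes of Sscrofa11.1, and ZAP70 was not analysed here. For each gene, the peaks from 3 kb before to 3 kb after it were taken from 6 peak lists, 1 for each histone mark and tissue. The tissues were myometrium, the muscle wall of the uterus, from the mesometrial side of Yorkshire gilts on day 15: the inner circular layer (GD15M_CM) and outer longitudinal layer (GD15M_LM) of pregnant animals, and the circular layer of animals in the oestrous cycle (CD15M_CM). H3K4me3, a mark of active promoters, and H3K27ac, a mark of active promoters and enhancers, were profiled in 2 gilts of each tissue, together with IgG controls, in 18 libraries in all. Reads of both gilts were pooled before peaks were called, so the lists carry no spread between gilts, and no difference below could be tested from them. The study ran its own differential test of regions of both marks. Between the circular muscles it reported far fewer differing regions for H3K27ac than for H3K4me3. It named CD3E among the genes with more H3K4me3 in GD15M_CM than in CD15M_CM.

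A T cell receptor recognises antigen but has no signalling tail of its own. The signal passes through the CD3 chains (encoded by CD3E, CD3D and CD3G) and the zeta chain (CD247), whose cytoplasmic motifs are phosphorylated by the kinase LCK and then bind the kinase ZAP70. LCK is carried to the receptor by the coreceptors CD4 and CD8, of which CD8A encodes the alpha chain, and CD2 is an adhesion and costimulatory receptor of T cells and natural killer (NK) cells. T cells are a minor population of the muscle wall, and in such bulk tissue a smaller share of T cells and less of a mark per T cell cannot be told apart.

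The study cloned promoter fragments of LCK, CD8A and CD3E into luciferase reporters. The primers are printed because they are the designed sequences that belong to these genes, each 5′ to 3′ in lower case with no part set in capitals, 20 bases long for LCK and CD8A and 21 bases for CD3E. Their positions on the assembly and the reporter activities were not analysed here.
LCK forward primer: ccacctcacaaaccccaaca
LCK reverse primer: tcacagtctgagagccgagt
CD8A forward primer: aacaaggtcaaaggcccaca
CD8A reverse primer: agagtcgccctcctattcgt
CD3E forward primer: tcatggtttaaggcaacgtgt
CD3E reverse primer: acccaagatgaagcaggaagt

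All 8 genes had an H3K4me3 peak in every tissue. The share of all placed genes with one was 60%, 61% and 61.7% in GD15M_CM, GD15M_LM and CD15M_CM, and that of protein-coding genes was 73.7%, 74.6% and 75.4%. Each peak's strength is its fold enrichment over the background of the peak caller, and because the lists were called on libraries of their own depth, a peak is compared here by its percentile, the rank of its fold enrichment among the peaks of the same list, scaled to 100. A gene has the percentile of its highest peak and 0 where it has none. In the same order, the median percentile of the 8 genes was 66.4, 58.5 and 54.7, below that of all genes with a peak, which was 79.9, 78.9 and 81.5. Those medians are over genes with a peak in either list of a comparison with GD15M_CM, with 0 where a tissue had none. The genes thus carried H3K4me3 in all 3 tissues, at peaks of middle rank.

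**Figure D1:**
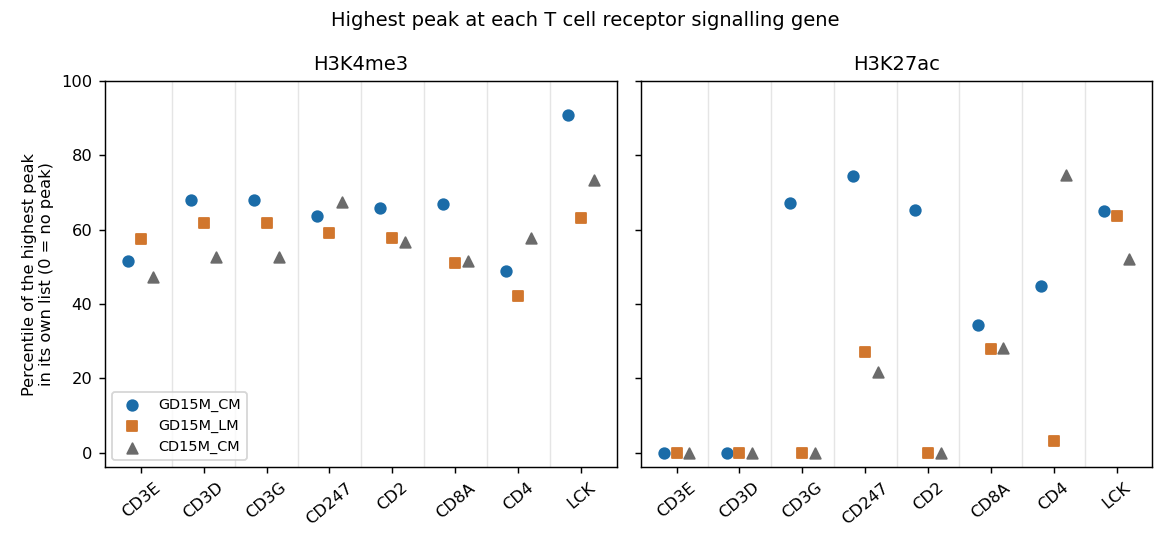
Percentile of the highest H3K4me3 peak (left) and H3K27ac peak (right) at each gene, on an axis from 0 (no peak) to 100 (strongest peak of its list), with 1 point per tissue and no error bar because both gilts were pooled. H3K4me3 points lie between 42.1 and 90.9, whereas for H3K27ac CD3E and CD3D are at 0 in every tissue, and CD3G and CD2 are above 0 in GD15M_CM and at 0 in the other tissues.

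CD3E, CD3D and CD3G, the epsilon, delta and gamma chains of CD3, lie together on chromosome 9, at chr9:45619730-45633972, chr9:45640475-45644153 and chr9:45645243-45656779. Only 1089 bp separate CD3D from CD3G, and in the pregnant tissues a single H3K4me3 peak covered this gap and parts of both genes. In GD15M_CM that peak ran over chr9:45641205-45647524, was 6320 bp long, and had a fold enrichment of 10.2 at percentile 68.0. In GD15M_LM it was 5430 bp long, with a fold enrichment of 10.1 at percentile 61.7. In CD15M_CM the same interval held a peak of 1446 bp with a fold enrichment of 4.02 and another of 830 bp with a fold enrichment of 4.90, the latter at percentile 52.6. The H3K4me3 between both genes was therefore longest in the pregnant circular muscle, and shortest and interrupted in the cyclic one. Since CD3D and CD3G take their value from the same peak, they count as 1 observation wherever they are listed together.

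At CD3E, the H3K4me3 peaks lay over the lower end of the gene, the end with the smaller coordinate (the gene table used here gives no strand). GD15M_LM had the highest value, a peak of 1958 bp with a fold enrichment of 7.94 at percentile 57.5. The higher of the 2 peaks in GD15M_CM was 1402 bp long, with a fold enrichment of 5.01 at percentile 51.7. In CD15M_CM there was 1 peak of 492 bp, with a fold enrichment of 4.41 at percentile 47.2. CD3E thus differed in rank by 4.47 points between the pregnant and the cyclic circular muscle, although the length under its peaks was 1950 bp against 492 bp.

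CD247, which encodes the zeta chain, is the longest of the genes (92622 bp, chr4:83494266-83586887) and had H3K4me3 at its lower end and at an inner site. The peak at its lower end was at percentile 56.6, 59.2 and 52.5 in GD15M_CM, GD15M_LM and CD15M_CM. The inner peak 82.8 to 83.8 kb above that end had percentiles of 63.7, 59.1 and 67.6 in the same order, and fold enrichments of 8.11, 8.71 and 10.9. The inner peak was thus highest in the cyclic circular muscle and the peak at the end was lowest there.

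CD2 (chr4:103963802-103976971) had its strongest H3K4me3 peak near its upper end, from 10.1 to 13.5 kb above the lower end in GD15M_CM. Its fold enrichment was 9.16 (percentile 65.9) there, 8.04 (percentile 57.8) in GD15M_LM and 5.56 (percentile 56.8) in CD15M_CM. Both pregnant tissues had 3 peaks in the window of CD2 and the cyclic circular muscle had 1.

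CD8A (chr3:57999228-58029768) showed the clearest difference in position. GD15M_CM had a peak of 3352 bp over its lower end, with a fold enrichment of 9.59 at percentile 66.8. GD15M_LM had 3 short peaks there, at percentiles 44.8, 39.2 and 3.76, and CD15M_CM had none. A second block of H3K4me3 about 23 kb into the gene was present in all tissues, with fold enrichments of 8.03, 5.87 and 4.79 and percentiles of 63.4, 51.1 and 51.7 in GD15M_CM, GD15M_LM and CD15M_CM. The percentile assigned to CD8A in GD15M_CM is that of the end peak, and in the other tissues that of the inner peak. At the inner peak alone GD15M_CM also ranked above the others.

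CD4 (chr5:63892129-63918547), the coreceptor of helper T cells, had the weakest H3K4me3 of the genes in GD15M_LM (percentile 42.1) and in GD15M_CM (percentile 48.8). In both, the highest peak lay near its upper end and had a fold enrichment of 4.66 and 4.70. The highest peak in CD15M_CM, with a fold enrichment of 5.79 at percentile 57.6, lay from -1.27 to -0.627 kb relative to the lower end of CD4, over the end of the neighbouring gene GPR162, which stops 692 bp from CD4. Peaks overlapping CD4 itself reached percentiles of 48.8, 42.1 and 40.5 in GD15M_CM, GD15M_LM and CD15M_CM. The order of the tissues at CD4 therefore turned on whether the GPR162 peak was included.

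LCK (chr6:88719886-88745922), the kinase that starts the signal, stood highest in all tissues, with percentiles of 90.9, 63.2 and 73.2 in GD15M_CM, GD15M_LM and CD15M_CM. This value came from a peak 28.9 kb above its lower end that lay outside LCK and over the start coordinate of HDAC1, a broadly expressed histone deacetylase gene, 3688 bp above LCK. The peak over the lower end of LCK had a fold enrichment of 8.68 at percentile 64.9 in GD15M_CM and 5.65 at percentile 50.0 in GD15M_LM. The highest at that end in CD15M_CM, 0.501 to 2.40 kb into the gene, had a fold enrichment of 6.63 at percentile 60.3. At LCK itself the pregnant circular muscle was thus 4.53 points above the cyclic one and 14.9 points above the longitudinal muscle.

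**Figure D2:**
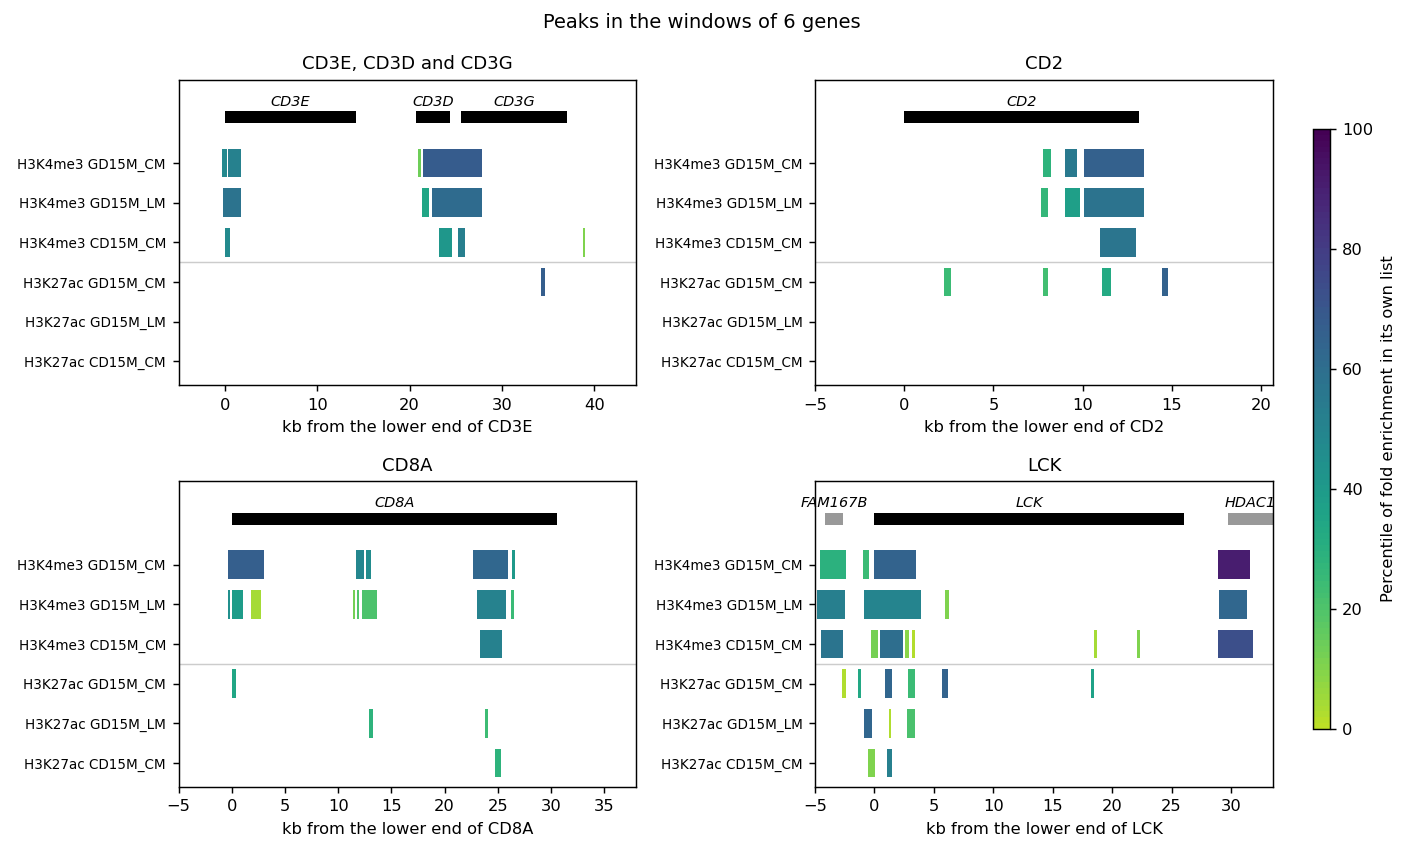
Peaks in the windows of 6 genes, with distance in kb from the lower end of the first gene of each panel. Black bars are the genes, grey bars their neighbours, and coloured bars the peaks of each mark and tissue, where darker bars have a higher percentile. The single CD3D and CD3G peak of the pregnant tissues, the end peak of CD8A in GD15M_CM and the dark peak over HDAC1 beside LCK are visible.

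A difference of at least 10 percentile points was counted as higher or lower. Between the pregnant and the cyclic circular muscle, H3K4me3 was higher in GD15M_CM at 4 of 8 genes and higher in CD15M_CM at 0 of 8. The 4 genes were LCK (17.7 points), CD3D and CD3G (15.4 points each, from the shared peak) and CD8A (15.1 points), and LCK passed only through the HDAC1 peak. Among all genes with a peak in either list, 12.4% were higher by this margin in GD15M_CM and 23.9% in CD15M_CM. CD2 lay just under the margin at 9.14 points, CD3E was at 4.47 points, and CD247 and CD4, higher in the cyclic muscle, were at -3.92 and -8.84 points. CD4 was so only through the GPR162 peak, with 8.26 points at peaks overlapping CD4 itself. The median difference was 12.1 points for the 8 genes and -2.13 points for all genes with a peak. The former counts the shared peak of CD3D and CD3G at both genes. It also takes LCK at the HDAC1 peak (4.53 points at peaks overlapping LCK itself) and CD4 in CD15M_CM at the GPR162 peak. When a margin of 20 points was used, 0 of the 8 genes passed in either direction, against 3.38% of genes higher in GD15M_CM and 8.99% higher in CD15M_CM. The CD15M_CM value of CD3D is that of a peak over the lower end of CD3G. At peaks overlapping CD3D itself the difference was 26.7 points (68.0 against 41.3). With each list cut to the same number of top peaks, CD3D and CD3G (20.3 points each), CD8A (20.1) and LCK (20.9, the HDAC1 peak) also exceeded 20 points. At that cut 0 genes were 10 points higher in CD15M_CM.

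Between the layers of the pregnant uterus, H3K4me3 was higher in the circular muscle at CD8A (15.7 points) and LCK (27.7 points), that is at 2 of 8 genes, and at 0 of 8 in the longitudinal muscle. The share among genes with a peak in either list was 20.9% in this direction and 20.2% in the other. CD3D and CD3G were 6.27 points higher, CD247 4.44, CD2 8.14 and CD4 6.68 points higher in GD15M_CM, and CD3E, higher in GD15M_LM, was at -5.81 points. CD247 was taken at its inner peak in GD15M_CM and its end peak in GD15M_LM. Within 3 kb of its ends it was at -2.58 points. The ratio of fold enrichment, GD15M_CM over GD15M_LM, was 1.01 at CD3D, CD3G and CD4, 1.14 at CD2, 0.925 at CD247 and 0.631 at CD3E. The median fold enrichment of all peaks was 4.86 in GD15M_CM and 5.66 in GD15M_LM. The median difference was 6.48 points for the 8 genes, against 0.40 points for all genes with a peak. The former counts the shared peak of CD3D and CD3G at both genes. It also takes LCK at the HDAC1 peak, where peaks overlapping LCK itself were 14.9 points higher in GD15M_CM.

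GD15M_LM and CD15M_CM differ in both layer and reproductive state, which cannot be told apart in this comparison. H3K4me3 was higher in GD15M_LM at CD3E alone (10.3 points) and higher in CD15M_CM at CD4 (-15.5 points) and LCK (-10.05 points). The CD15M_CM value of CD4 is that of the peak over GPR162, and peaks overlapping CD4 itself differed by 1.58 points. The CD15M_CM value of CD3D comes from a peak over the lower end of CD3G. Peaks overlapping CD3D itself were 20.4 points higher in GD15M_LM. The LCK values are those of the HDAC1 peak, with -10.4 points at peaks overlapping LCK itself. Of genes with a peak in either list, 12.8% were higher in GD15M_LM and 24.7% in CD15M_CM. The median difference was 0.21 points for the 8 genes and -2.36 points for all genes with a peak. The former counts the shared peak of CD3D and CD3G at both genes and includes the GPR162 and HDAC1 peaks.

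The tissues also differed in the length of H3K4me3. The summed length of the peaks in the window of CD3D was 6611 bp in GD15M_CM against 6213 bp in GD15M_LM, and 2276 bp in CD15M_CM. At CD8A it was 8286, 7083 and 2147 bp, and at CD2 it was 4503, 4597 and 2066 bp in the same order. CD3G had 6320, 5430 and 2580 bp, and CD247 had 3158, 2941 and 1873 bp. These genes had similar lengths in the pregnant tissues and a shorter one in the cyclic circular muscle.

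A covered length at least 1.5 times longer in GD15M_CM than in CD15M_CM (or present only there) was found at 6 of 8 genes (CD3E, CD3D, CD3G, CD247, CD2 and CD8A), and the reverse at 0. Of the genes with a peak in either list, 3.6% were longer by this factor in GD15M_CM and 16.7% in CD15M_CM. The length was also greater in GD15M_LM than in CD15M_CM at 7 of 8 genes, all but LCK, against 6.47% of genes, and the reverse at 0, against 11.9%. It was greater in GD15M_CM than in GD15M_LM at 0 of 8, against 7.54% of genes. In the other direction only CD4 passed, with 2200 bp against 1297 bp, where 15.7% of genes did. The CD4 lengths of GD15M_LM and CD15M_CM include the peak over GPR162. Peaks overlapping CD4 itself covered 1297, 1842 and 521 bp in GD15M_CM, GD15M_LM and CD15M_CM. With peaks overlapping the genes alone, CD4 did not pass between the layers. It did pass between the circular muscles, where 7 of 8 genes were then longer in GD15M_CM. At LCK the lengths of 8876, 9837 and 8308 bp include the peaks of HDAC1 and of FAM167B, a gene 2613 bp below LCK. The libraries are pooled and the lists differ in median peak length (760, 1007 and 800 bp in GD15M_CM, GD15M_LM and CD15M_CM), so the lengths have no error and their scale differs between lists.

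**Figure D3:**
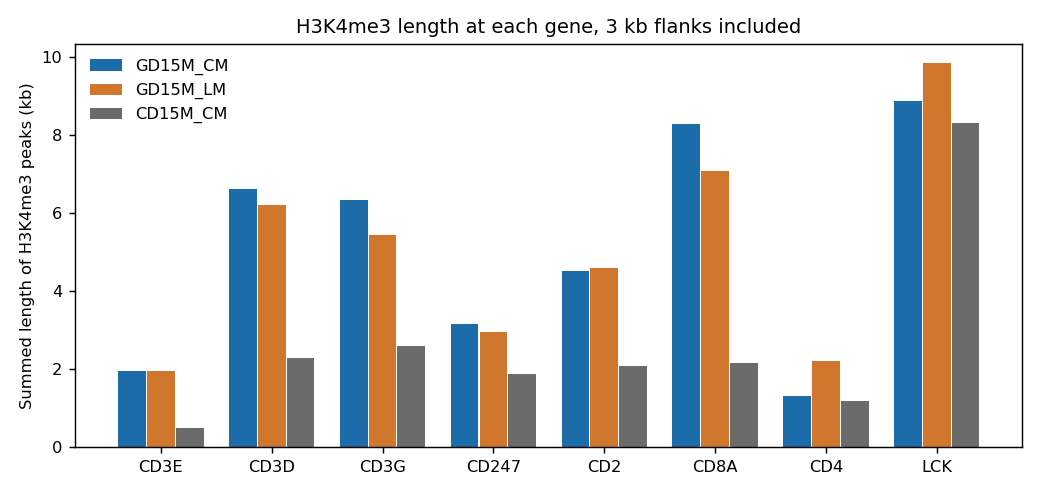
Summed length in kb of the H3K4me3 peaks from 3 kb before to 3 kb after each gene, with 1 bar per tissue, from 0, and no error bar because both gilts were pooled. The CD15M_CM bar is the shortest at every gene, and at CD3D, CD3G, CD2 and CD8A it is at most 2580 bp where the pregnant bars are at least 4503 bp.

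H3K27ac was weak and short at these genes. In GD15M_CM 6 of 8 genes had a peak, and in GD15M_LM and CD15M_CM 4 each, where 62.9%, 61.3% and 64.9% of all placed genes and 73.9%, 73.1% and 75.8% of protein-coding genes had one. CD3E and CD3D had none in any tissue. The fold enrichments lay between 2.22 and 4.31 and the lengths between 210 and 691 bp. The windows held 24, 7 and 7 H3K27ac peaks in GD15M_CM, GD15M_LM and CD15M_CM, of 79877, 57010 and 82037 in the whole lists.

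CD247 had 9 of the peaks in GD15M_CM, the highest at percentile 74.3 and 63.2 kb above its lower end, where the other tissues had none. It had 1 peak each in GD15M_LM (percentile 26.96) and CD15M_CM (percentile 21.7), over its inner H3K4me3 peak. CD2 had 4 peaks in GD15M_CM, the highest at percentile 65.4 and 1305 bp above its upper end, and none in the other tissues. CD3G likewise had a peak in GD15M_CM alone, of 414 bp at percentile 67.3, 8.71 kb into the gene and away from the H3K4me3 shared with CD3D.

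At CD8A the percentiles were 34.3, 28.0 and 28.1 in GD15M_CM, GD15M_LM and CD15M_CM, and the peaks were at different places: over the lower end in GD15M_CM, and 12.9 and 23.8 kb into the gene in GD15M_LM and 24.8 kb in CD15M_CM. LCK had percentiles of 64.9, 63.6 and 52.0, all from peaks inside the gene or within 1 kb of it. CD4 had 44.9, 3.01 and 74.6, and the value of CD15M_CM came from the peak over the end of GPR162. Peaks overlapping CD4 itself reached percentile 59.0 in CD15M_CM and 44.9 in GD15M_CM, and there was none in GD15M_LM.

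H3K27ac was at least 10 points higher in GD15M_CM than in CD15M_CM at 4 of 8 genes (CD3G, CD247, CD2 and LCK), against 17.2% of all placed genes, and lower at CD4, against 18.5%. It was higher in GD15M_CM than in GD15M_LM at 4 of 8 (CD3G, CD247, CD2 and CD4), against 22.2%, and lower at 0, against 14.8%. CD3G and CD2 pass the margin readily in both comparisons, because a missing peak counts as 0. Peaks overlapping CD2 itself reached percentile 32.5 in GD15M_CM. The LCK difference between the circular muscles rests on fold enrichments of 3.89 in GD15M_CM and 3.56 in CD15M_CM. Between GD15M_LM and CD15M_CM, LCK was higher in GD15M_LM (11.6 points) and CD4 in CD15M_CM (-71.6 points), where 13.8% and 22.8% of genes were. None of these H3K27ac peaks reached both a −log10 p of 10 and a fold enrichment of 5, so that under such a threshold no gene had the mark and no difference could be counted. Over the whole lists, 12.2%, 19.8% and 12.4% of the H3K27ac peaks of GD15M_CM, GD15M_LM and CD15M_CM passed it.

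Both marks were also compared in position. The highest H3K4me3 peak overlapped an H3K27ac peak at 5 of 8 genes in GD15M_CM (CD247, CD2, CD8A, CD4 and LCK), 2 in GD15M_LM (CD8A and LCK) and 4 in CD15M_CM (CD247, CD8A, CD4 and LCK). The overlap counted for LCK was at the HDAC1 peak outside LCK in every tissue. That for CD4 in CD15M_CM was at the peak over the end of GPR162. For all genes with H3K4me3 the share was 92.3%, 92.0% and 92.8%. Among H3K4me3 peaks in the same range of percentiles as those of the 8 genes, it was 86.9%, 68.2% and 74.9%. At CD3E, CD3D and CD3G the highest H3K4me3 peak had no H3K27ac in any tissue.

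Other genes of the T cell receptor pathway were followed in a list of coreceptors, costimulatory receptors, adaptors, kinases, phosphatases and transcription factors, of which 41 of 42 were placed (TRAT1 was not analysed here). Of the 41, 39 had an H3K4me3 peak in GD15M_CM, 37 had one in GD15M_LM, and 34 had one in CD15M_CM. Between GD15M_CM and CD15M_CM, 14 were at least 10 points higher in GD15M_CM and 1 was lower, against the 12.4% and 23.9% of genes given above. At a margin of 20 points 10 were higher and 0 lower, against 3.38% and 8.99%.

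Of these 10, 5 had no H3K4me3 peak in the cyclic circular muscle. CD8B, which encodes the other chain of CD8 and lies 12777 bp below CD8A, was at percentile 55.4 in GD15M_CM and 45.0 in GD15M_LM. The costimulatory receptor CD28 was at 52.8 and 17.5, and the inducible costimulator ICOS at 45.5 in GD15M_CM with no peak in GD15M_LM. THEMIS, a T cell adaptor needed in thymic selection, was at 54.5 and 49.3. The adaptor SH2D1A was at 49.5 and 50.5. A missing peak counts as 0 here, so such genes pass the margin readily. These 5 were the only ones with a peak in GD15M_CM and none in CD15M_CM among the 39 pathway genes with a peak in either list. Of all genes with a peak in either list, 1.39% were like that.

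Other genes past 20 points had a peak in every tissue. The surface receptor CD5 was at percentiles 47.9, 21.4 and 18.0 in GD15M_CM, GD15M_LM and CD15M_CM. CD6, its relative, was at 29.3, 43.9 and 2.92. The adaptor GRAP2 was at 56.8, 60.5 and 29.8, and the adaptor LAX1 at 70.3, 53.9 and 44.5. The margin itself places CD15M_CM below GD15M_CM at these 4 genes, and CD15M_CM was also below GD15M_LM at each of them.

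The 4 genes between 10 and 20 points, named after their values were seen, were the phosphatase PTPRC (13.6 points), the adaptors LAT (11.01 points) and SLA2 (14.9 points), and the negative regulator UBASH3A (15.4 points). CD27, a receptor of the tumour necrosis factor receptor family also named after its value was seen, was at -19.5 points, lower in GD15M_CM. The median over the 39 pathway genes with a peak in either list was 2.09 points. CTLA4 and TXK had no H3K4me3 peak in any tissue. Between the layers, 10 of the pathway genes ranked higher in the circular muscle and 3 in the longitudinal muscle, where 20.9% and 20.2% of genes did. Against CD15M_CM, GD15M_LM was higher at 11 and lower at 5, where 12.8% and 24.7% of genes were. For H3K27ac, 7 pathway genes were higher in GD15M_CM than in CD15M_CM and 6 lower, out of the 41 placed, against 17.2% and 18.5% of all placed genes.

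**Figure D4:**
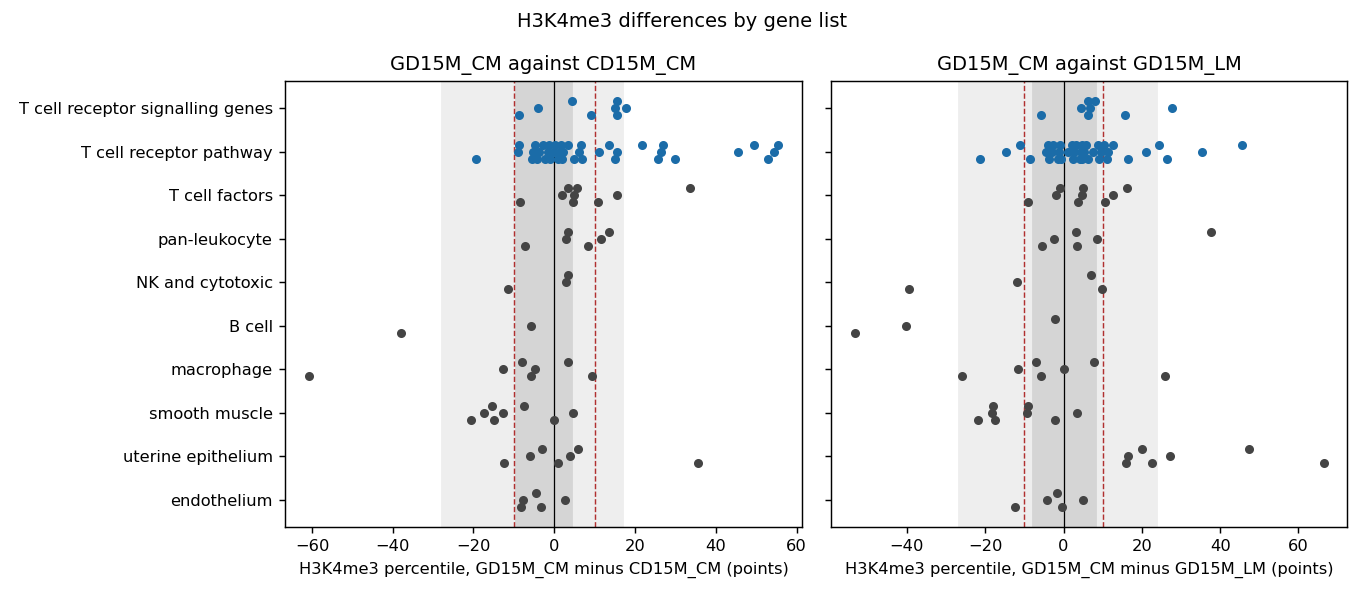
Difference in H3K4me3 percentile for each gene with a peak in either tissue, by list, for GD15M_CM minus CD15M_CM (left) and GD15M_CM minus GD15M_LM (right), in points. The dark band is the interquartile range of all genes with a peak, the light band runs from the 5th to the 95th percentile of those genes (-27.8 to 16.99 points on the left, -26.7 to 24.0 points on the right), and dashed lines mark 10 points. The pathway genes past 20 points lie beyond the light band on the left by definition, since that margin exceeds its upper edge. The uterine epithelium list is shifted to the right in the comparison of layers.

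Lists of markers of other cell types are given beside these counts, and the shares of all genes with a peak to read them against are the same 12.4% higher and 23.9% lower in GD15M_CM than in CD15M_CM. Transcription factors of T cells were at least 10 points higher in GD15M_CM than in CD15M_CM at 3 of 9 genes (RUNX3 by 33.6, EOMES by 15.5 and ETS1 by 10.9 points) and lower at 0, with percentiles summed over the list of 637, 596 and 565 in GD15M_CM, GD15M_LM and CD15M_CM. Of 6 pan-leukocyte genes, PTPRC and CD52 were higher and 0 lower, with sums of 409, 364 and 377. The NK and cytotoxic list had 0 of 8 higher and 1 lower, with sums of 131, 166 and 137. In that list NCR1, GZMA, GZMB and KLRB1 had no H3K4me3 peak in any tissue, and NKG7, PRF1 and GZMH had one in every tissue. The B cell list had 0 of 6 higher and 1 lower, with sums of 114, 210 and 158 and no peak in any tissue at MS4A1, CD79B and BLK. Of 7 macrophage genes, 0 were higher and 2 lower, with sums of 405, 421 and 484. Compared with GD15M_LM, T cell factors had 3 genes higher and 0 lower in GD15M_CM, and the pan-leukocyte list 1 and 0. The NK and cytotoxic list had 0 and 2, the B cell list 0 and 2, and the macrophage list 1 and 2. The shares of genes with a peak were 20.9% higher and 20.2% lower between these layers.

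All 8 smooth muscle genes had an H3K4me3 peak in each tissue, as did all 8 T cell receptor signalling genes. The share of protein-coding genes with one was 73.7%, 74.6% and 75.4% in GD15M_CM, GD15M_LM and CD15M_CM. The smooth muscle genes were not level between the tissues. Of them, 5 were lower in GD15M_CM than in CD15M_CM and 4 lower than in GD15M_LM, with 0 higher in both comparisons (against 20.9% of genes higher and 20.2% lower between the layers) and sums of 623, 717 and 707. Of 7 uterine epithelium genes, 1 was higher and 1 lower in GD15M_CM than in CD15M_CM, whereas all 7 were higher than in GD15M_LM, with sums of 520, 304 and 495. The endothelium list had 0 of 6 higher and 0 lower between the circular muscles, and 1 lower in GD15M_CM than in GD15M_LM, with sums of 304, 318 and 325. For H3K27ac, 6 of 7 uterine epithelium genes and 4 of 6 pan-leukocyte genes were higher in GD15M_CM than in GD15M_LM and 0 lower, and 3 of 7 and 3 of 6 were higher than in CD15M_CM and 1 of each lower. The other lists are given as genes higher and lower in GD15M_CM. Against GD15M_LM, T cell factors had 3 and 2, NK and cytotoxic genes 3 and 0, and B cell genes 1 and 2. Macrophage genes had 3 and 1, smooth muscle genes 2 and 2, and endothelium genes 1 and 1. Against CD15M_CM, T cell factors had 1 and 1, NK and cytotoxic genes 1 and 2, and B cell genes 0 and 3. Macrophage genes had 3 and 1 there, smooth muscle genes 0 and 3, and endothelium genes 1 and 1. The shares of all placed genes were 22.2% higher and 14.8% lower between the layers, and 17.2% and 18.5% between the circular muscles. The part of these lists in the values of the T cell receptor signalling genes was not tested.

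The genes most like each member over its 6 percentiles, 3 tissues by 2 marks, were found by the mean absolute difference. CD3D was closest to the lymphocyte receptor gene GPR171 (1.11 points) and the pathway gene UBASH3A (1.18 points). CD3G was closest to SRGN (1.67 points), which encodes the granule proteoglycan serglycin, and to CD2 (2.02 points), and CD2 in turn to SRGN (1.24 points) and CD3G. CD3E was closest to MARCH1 (1.08 points) and FAM19A4 (1.14 points), and CD8A to ARHGAP45 (4.01 points) and ALOX5 (5.03 points). The nearest genes were FAM26F (3.82 points) and NLRP12L (4.23 points) for CD247, NAGK (4.73 points) and MOCOS (4.83 points) for LCK, and DNAH1 (5.50 points) and TTC34 (5.54 points) for CD4. These are likenesses over 6 values of pooled libraries, and genes with no H3K27ac in any tissue, such as CD3D and CD3E, share 3 of the 6 values with every gene that also lacks it. The H3K4me3 values of LCK are those of the HDAC1 peak. Of the CD4 values, those of CD15M_CM and the H3K27ac value of GD15M_LM are of the peak over GPR162.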

How the data were processed

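H3K4me3, H3K27ac and IgG libraries were made with n = 2 gilts per tissue, 18 libraries in all, and every library was grouped by its labels. The authors mapped reads to Sus scrofa 11.1 with BWA 0.7.17-r1188, filtered them with SAMtools 1.9 and Picard 2.8.3, pooled both gilts and called peaks with MACS2 2.2.6. The deposited fold enrichment is a ratio to the background of MACS2 (whether that was the IgG libraries is not given in the sources used here), and the deposited −log10 p belongs to single peaks of a list; its column header was unreadable and it was identified by its identity with the peak table of the study. A further column, taken to be −log10 q, was left aside. The lists hold no read counts, so the depth behind a peak is unknown here and no interval is given.

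Peaks of at least 1 bp overlap with a gene and 3 kb on both sides were assigned with Python 3.11.15, pandas 2.3.3 and NumPy 2.4.6, and plotted with Matplotlib 3.10.9. A percentile is the rank of fold enrichment within a list. The assignment was tested on simulated data, where 0 of 200 genes per window were wrong. RefSeq genes were used without strand, so gene ends replaced the planned transcription start sites. Differences of 10 percentile points and 1.5 times in length were counted beside the same over all genes.

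The members, the pathway list and the marker lists were chosen with earlier results of these data known. Named were the members, pathway genes at least 20 points apart in H3K4me3 between GD15M_CM and CD15M_CM, genes sharing a peak with a member, and the 2 coding genes most like each member. ZAP70 and TRAT1 were not analysed here. One named pathway gene is not reported here. Alternatives were ranking by −log10 p, a strict threshold (fold enrichment from 5 upwards and −log10 p from 10 upwards), the same number of top peaks per mark, other windows, joining of peaks under 1 kb apart, and margins of any size or 20 points.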

Additional observations from a re-analysis of the deposited data

How the results depend on the processing

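No paired analysis was possible because both gilts of a tissue were pooled before peaks were called, and for the same reason no gilt could be left out. H3K4me3 higher in GD15M_CM than in CD15M_CM was found at 3 to 6 of 8 genes under every alternative but the 20-point margin (0). The 2 genes higher than in GD15M_LM became 1 when ranked by −log10 p, 7 with any difference and 1 at 20 points. The 1 gene higher in GD15M_LM than in CD15M_CM became 3 by −log10 p, with equal numbers of top peaks or with joined peaks, 4 under the strict threshold or with any difference, 2 around gene ends, in the gene body alone or by nearest gene end, and 0 at 20 points. Under the strict threshold 4 genes kept H3K4me3 in CD15M_CM (CD247, CD2, LCK and, only through the peak over GPR162, CD4). CD4 turned from 15.5 points lower in GD15M_LM than in CD15M_CM to 1.58 points higher in the gene body or by nearest gene end, where the peak over GPR162 is left out. For H3K27ac, the strict threshold left 0 genes with a peak in each tissue and so 0 in each comparison; around gene ends 2 genes had a peak in GD15M_LM and 2 in CD15M_CM. The 1 gene higher in H3K27ac in GD15M_LM than in CD15M_CM (LCK) became 0 by −log10 p, in the gene body and at 20 points, 2 with any difference and 3 with equal numbers of top peaks, and LCK was at -31.3 points in the gene body alone, where its highest GD15M_LM peak, just below the gene, is left out. Alternatives for length and the pathway list were chosen after seeing the data. The strict threshold gave 1 gene longer in CD15M_CM than in GD15M_CM, 1 in GD15M_CM than in GD15M_LM and 1 in CD15M_CM than in GD15M_LM, gene ends gave 1 longer in GD15M_CM than in GD15M_LM, and the gene longer in GD15M_LM than in GD15M_CM was lost (0) in the gene body and by nearest gene end. The gene longer in CD15M_CM under the strict threshold was CD4 in both comparisons, through the peak over GPR162. The 14 pathway genes higher in GD15M_CM than in CD15M_CM became 9 under the strict threshold, and the 1 lower became 5 there, 3 with joined peaks, 2 in the gene body or by nearest gene end and 0 at 20 points. In the reverse directions, H3K4me3 was higher in CD15M_CM than in GD15M_CM at 1 gene (CD4) by −log10 p, in GD15M_LM than in GD15M_CM at 1 (CD3E) under the strict threshold, and in CD15M_CM than in GD15M_LM at 0 with equal numbers of top peaks and at 1 under the strict threshold, in the gene body or by nearest gene end. H3K27ac was higher in CD15M_CM than in GD15M_CM at 2 genes by −log10 p, in GD15M_LM than in GD15M_CM at 2 with equal numbers of top peaks, and in CD15M_CM than in GD15M_LM at 3 by −log10 p and 2 in the gene body. Counts for the marker lists were not recomputed.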
